A study of Mus musculus with 4 samples.

Results

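Proteins that a cell secretes, stores in granules or carries on its surface are made at the endoplasmic reticulum (ER), and 54 genes of that route were followed here in CD11b+ cells of mouse spleen. The 54 genes were chosen by name, for their known roles in translocation, folding, glycosylation, quality control and stress signalling of the ER. That rule uses none of their measured values, but the genes were chosen with earlier results of these data known. A probe set is a group of array probes that reads the same transcript. Of the 54 genes, 52 had a probe set of their own, out of 18193 genes read in this way on the array, and where a gene had several, the brightest on average stood for it.

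The study compared a control group, labelled as a low threat environment, with mice subjected again and again to social threat, labelled as a high threat environment. Each group had 2 pools, each pool held the RNA of 5 mice, and each pool was read on 1 Affymetrix MOE430 2.0 array. CD11b, encoded by Itgam, is an integrin chain of neutrophils, monocytes, macrophages and some dendritic and lymphoid cells, and all 4 pools came from primary spleen cells isolated by it. Strain, sex and age of the mice, and the way in which threat was applied, are not given in the sources used here.

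Ribosomes that begin a secretory protein are recognised by the signal recognition particle and docked at the Sec61 channel, through which the chain enters the ER. Signal peptidase then cuts the leader off, oligosaccharyltransferase attaches N-linked sugar chains, and chaperones and disulfide isomerases fold the product. Misfolded chains are drawn back into the cytosol and degraded. The sensors IRE1 (Ern1), PERK (Eif2ak3) and ATF6 (Atf6) watch over the load of unfolded protein and act through the transcription factors XBP1, ATF4, CHOP (Ddit3) and ATF6 itself. Cells that make granule enzymes or antibodies have an extensive ER.

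All levels below are log2 expression values of single probe sets, and differences are social threat minus control on the log2 scale with their standard error (SE). A gene was called at an adjusted p under 0.05 in limma, a linear model with moderated variances that was fitted to all probe sets, and rose and fell are used of called genes. The p-values and SEs rest on the spread between 2 pools per group and do not measure the spread between mice. A gene's own spread enters with 2 degrees of freedom. The spread of all probe sets, as a trend with their level, enters with 7.14. Each pool mixes cell types, so that fewer cells of a kind and less RNA per cell cannot be told apart.

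More of the chosen genes of the ER machinery rose than fell, whereas nearly all of the chosen stress sensors and factors fell. Of the 52 measured genes, 18 rose (34.6%), 8 fell (15.4%) and 26 were not called. Among all 18193 genes 9.40% rose and 11.7% fell, and among the 4581 genes with a mean level of at least 8, a limit set after the levels were seen, 20.5% rose and 23.9% fell. At that limit 17 of 51 members rose (33.3%) and 8 fell (15.7%). The share of rises therefore stood above both backgrounds. The share of falls was above that of all genes but below that of genes at that level, which 51 of the 52 members reach. All 18 rises were among the 46 genes of translocation, glycosylation, folding and degradation, of which 3 fell, and 5 of the 6 stress sensors and factors fell while 0 rose. The median difference was 0.13 over those 46 genes, -0.43 over the stress genes and -0.02 over all genes. Of 117 other ER genes described below, 12 rose (10.3%) and 16 fell (13.7%), so the excess of rises was not seen in that list.

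Most differences were small. Only Ero1a, Derl3 and Creld2 were at least 1.5-fold higher and only Ddit3 was at least 1.5-fold lower. Both social threat pools lay above both control pools for 36 of the 52 genes (69.2%, against 26.1% of all genes) and below them for 11 (21.2%, against 32.1%). Calls and overlap come from the same values, so pools that do not overlap are no further support for a call, here or below. The pools of a group were close to each other, with a largest gap between control pools of 0.27 (Ern1) and between social threat pools of 0.13 (Srp72). Of the 26 calls, 8 held under all 13 alternative settings, those of Spcs1, Sdf2l1, Creld2, Ero1a, Derl3, Herpud1, Atf4 and Ddit3. Without social threat pool 1, 13 of the 26 calls held, without social threat pool 2, 11, and without the variance trend, 10. All 26 kept their sign in each of these fits. Without the variance trend, Atf6, Ern1 and the 8 genes named above kept their calls, and the other called genes did not.

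**Figure D1:**
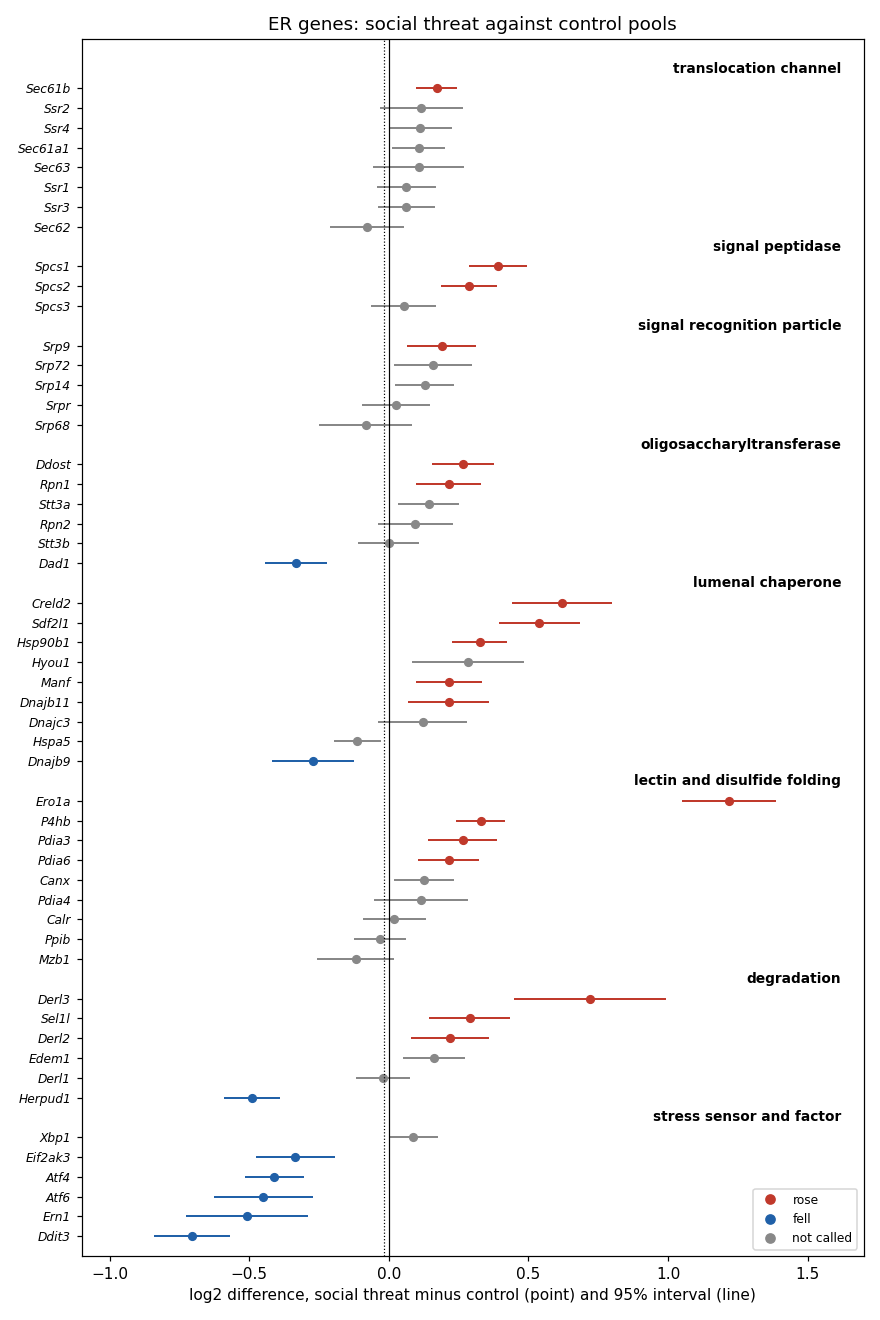
Log2 difference of each measured ER gene, social threat minus control, as a point with its 95% interval from limma, grouped by role. The dotted line is the median of all genes at -0.02, and 5 of the 6 stress sensors and factors lie to its left with intervals that do not reach 0.

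Marker genes of several cell types moved in the same pools, and their part in the ER results was not tested. Granule genes of immature neutrophils rose for 15 of 15, with a median of 1.94 and a summed level (log2 of the summed linear values) of 15.40 to 15.42 in control and 16.40 in both social threat pools. Cell cycle genes rose for 21 of 23, with summed levels of 13.09 to 13.13 and 14.03 to 14.06. Plasma cell markers fell for 7 of 11 and rose for 0, with summed levels of 13.36 to 13.40 and 13.04 in both social threat pools, while Derl3 rose and Mzb1 was not called. B cell markers fell for 14 of 15, dendritic cell markers fell for 10 of 13 and rose for 1, and red pulp macrophage markers fell for 10 of 15 and rose for 1. Their summed levels were 12.67 to 12.68 in control and 11.68 to 11.73 under social threat for B cells, 13.73 to 13.75 and 13.48 to 13.49 for dendritic cells, and 14.12 to 14.15 and 13.74 for macrophages. The values include no detection calls, so no marker can be said to be at 0. Itgam read 10.47 and 11.01 in the control pools and 11.64 and 11.59 in the social threat pools and rose by 0.88 (SE 0.13, adjusted p = 0.0015), the T cell gene Cd3e fell by 0.44 from 7.11 and 7.02, and the epithelial gene Epcam was near the array median.

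By their brightest probe sets, most targeting and translocation genes stood slightly higher under social threat, but few were called. Of the 8 measured genes of the channel and its partners, 1 rose (12.5%) and 0 fell, with a median difference of 0.11. Among all genes 9.40% rose and 11.7% fell, and at a mean level of at least 8, 20.5% and 23.9%. These shares are the background for the counts of each role below. Sec61b, the small beta subunit of the Sec61 channel, read 11.64 and 11.62 in the control pools and 11.80 and 11.80 in the social threat pools, a rise of 0.17 (SE 0.03, adjusted p = 0.00472). Its pools did not overlap, and those of each group were nearly identical. The call of Sec61b was lost when either social threat pool was left out (adjusted p of 0.0854 to 0.0856). The channel-forming subunit Sec61a1 read 10.91 and 10.87 in the control pools and 10.97 and 11.03 in the social threat pools and was not called (0.11, SE 0.04, adjusted p = 0.123). The 4 subunits of the TRAP complex beside the channel (Ssr1, Ssr2, Ssr3 and Ssr4) and Sec63, which recruits the chaperone BiP to the channel, differed by 0.06 to 0.12 and Sec62, a partner of Sec63, by -0.08, with no calls. Sec61g had no probe set of its own. A probe set that it shares with 2 predicted genes differed by 0.05 and was not called.

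Among the 5 measured genes of the signal recognition particle and its receptor, 1 rose and 0 fell, with a median of 0.13. A further subunit, Srp19, which is not among the 54, rose by 0.43. Srp9, a subunit of its Alu domain, read 10.68 and 10.54 in the control pools and 10.81 and 10.78 in the social threat pools and rose by 0.19 (SE 0.05, adjusted p = 0.0392). The call of Srp9 was lost in 7 of the 13 alternative settings, with an adjusted p of 0.0795 without control pool 2, 0.286 without social threat pool 1 and 0.202 without social threat pool 2, and its second probe set differed by 0.02. Srp14, the partner of Srp9, and Srp72 differed by 0.13 and 0.16, Srp68 by -0.08 and the docking receptor Srpr by 0.03, none of them called. Other bright probe sets did not repeat the differences of Srp14 and Srp72. Those of Srp14 differed by 0.06, -0.05 and -0.13 and that of Srp72 by -0.007, without a call. Srp54a, the subunit that binds signal sequences, was read only by probe sets shared with its copies Srp54b and Srp54c, whose differences of 0.06 to 0.15 were not called.

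Signal peptidase, which removes the leader peptide, rose for 2 of the 3 subunits among the 54 genes. Of its catalytic subunits, which are not among the 54, Sec11c rose by 0.31 and Sec11a was not called (-0.05, SE 0.05, adjusted p = 0.652). Spcs1 read 10.79 and 10.74 in the control pools and 11.20 and 11.11 in the social threat pools, a rise of 0.39 (SE 0.04, adjusted p = 0.000279) or 1.31-fold. Its second bright probe set rose by 0.34. Spcs2 read 10.38 and 10.36 in the control pools and 10.64 and 10.67 in the social threat pools, a rise of 0.29 (SE 0.04, adjusted p = 0.0014), and both of its probe sets were called. Neither gene's pools overlapped. The call of Spcs2 was lost without social threat pool 2 and without the variance trend (adjusted p = 0.0742 in limma). That of Spcs1 was not lost in any setting. Spcs3, which is needed for catalysis, differed by 0.05 (SE 0.05, adjusted p = 0.593), with a 95% interval of -0.06 to 0.17.

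Subunits of oligosaccharyltransferase, the enzyme that transfers the sugar chain, went both ways, with 2 rises and 1 fall among 6. Ddost read 10.14 and 10.07 in the control pools and 10.36 and 10.38 in the social threat pools and rose by 0.26 (SE 0.05, adjusted p = 0.00431). Rpn1, ribophorin I, read 10.10 and 10.19 in the control pools and 10.35 and 10.37 in the social threat pools and rose by 0.21 (SE 0.05, adjusted p = 0.0169). For Rpn1, 5 of 6 probe sets rose, and the one that did not stands below the array median of 4.41 to 4.43, where signal and background cannot be separated. Dad1, a small subunit whose loss leads to apoptosis, went the other way, with 10.29 and 10.32 in the control pools and 9.95 and 9.99 in the social threat pools, a fall of 0.33 (SE 0.05, adjusted p = 0.00117). Its second probe set fell by 0.51, so both of its readings were lower. The catalytic subunits Stt3a and Stt3b and the subunit Rpn2 were not called. Stt3a differed by 0.14 and Rpn2 by 0.09, and the 95% interval of Stt3b ran from -0.11 to 0.11. Without social threat pool 1, Rpn1 and Ddost were no longer called (adjusted p of 0.0763 to 0.158), nor were they without social threat pool 2 (0.0942 to 0.201), while Dad1 was called in both. Rpn1 was also not called (adjusted p = 0.56) when read by its dim probe set alone, the one without a suffix that marks probes shared among transcripts.

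The promoters of many ER chaperone genes carry an ER stress response element (ERSE), the site through which ATF6 and XBP1 are known to act. These sequences are shown because some of their genes were called and others were not. The element is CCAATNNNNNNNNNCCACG, and the related ERSE-II is ATTGGNCCACG. The search was added after the differences were seen. Both strands were searched in RefSeq windows (GRCm38.p6) from 250 bases before to 50 bases after each start, which were at hand for 45 of the 54 genes and not for Sec61a1, Ssr2, Spcs3, Srp68, Hyou1, Manf, Mzb1, Derl1 and Atf6. An exact ERSE was found for 8 of the 45 genes (17.8%) and in 29 of 17491 protein-coding genes with a window (0.166%). An ERSE-II was found for 2 of 45 (4.44%) and in 11 of the 17491 genes (0.0629%). The UPR element TGACGTGG was in 0 of the 45 windows and in 0.823% of all genes, and the amino acid response element TGATGCAA was in 1 of 45, that of Herpud1, and in 1.01% of all genes. A match describes letters in a window and is not evidence of binding, and a missing match says only that these exact letters are not there. The windows below run 5′ to 3′ on the gene's strand, each with up to 20 bases on both sides of the element, and capitals mark the fixed letters of the element. Where the element lies on the opposite strand, it reads CGTGG, 9 bases and ATTGG.

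ERSE elements of genes that rose are these. Dnajb11 also rose, but its ERSE-II lies after the start, in the transcribed part, and is not printed.
Creld2 (chr15:88819500-88819558, plus strand): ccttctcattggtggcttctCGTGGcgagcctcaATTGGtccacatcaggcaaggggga
Derl3 (chr10:75893222-75893280, plus strand): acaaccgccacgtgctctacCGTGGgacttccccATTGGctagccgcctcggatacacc
Hsp90b1 (chr10:86705513-86705676, minus strand): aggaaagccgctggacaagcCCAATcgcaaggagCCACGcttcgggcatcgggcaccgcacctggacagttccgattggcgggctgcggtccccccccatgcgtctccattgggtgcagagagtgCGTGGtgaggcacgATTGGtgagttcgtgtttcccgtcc
Pdia6 (chr12:17266471-17266529, plus strand): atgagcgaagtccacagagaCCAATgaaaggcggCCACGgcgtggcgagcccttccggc

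ERSE elements of genes that were not called are these.
Hspa5 (chr2:34772005-34772063, plus strand): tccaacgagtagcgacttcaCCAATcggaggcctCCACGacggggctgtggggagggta
Calr (chr8:84847055-84847113, minus strand): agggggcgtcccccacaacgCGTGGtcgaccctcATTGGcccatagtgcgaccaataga
Canx (chr11:50325780-50325838, minus strand): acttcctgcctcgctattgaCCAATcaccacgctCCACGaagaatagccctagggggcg
Dnajc3 (chr14:118937807-118937865, plus strand): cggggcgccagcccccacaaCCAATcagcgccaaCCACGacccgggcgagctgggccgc

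The ERSE-II of Herpud1, which fell, is this.
Herpud1 (chr8:94386357-94386407, plus strand): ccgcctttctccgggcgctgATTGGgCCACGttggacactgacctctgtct

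Of the 8 genes with an ERSE, 4 rose, 0 fell and 4 were not called, with a median difference of 0.17. Of all 52 measured genes 34.6% rose and 15.4% fell, and of all 18193 genes 9.40% and 11.7%. Among all genes with a mean level of at least 8, which each of these genes but Derl3 reaches, 20.5% rose and 23.9% fell. All calls here are by the brightest probe set. Hspa5, Calr and Canx each had another probe set called higher, by 0.34, 0.21 and 0.37, and none called lower. Hsp90b1 held 2 copies, 1 on each strand. The element of Hspa5 ended at position -47 from the start, the nearest to a start among the 8 genes. Dnajb11, whose ERSE-II begins 8 bases after its start, rose, and Herpud1, with an ERSE-II that begins at position -52, fell. Among these 8 genes, an exact ERSE thus went with a rise or with no call, and the fall was that of Herpud1, with an ERSE-II. This did not extend to genes outside the chosen list. Of 11 such genes with an exact ERSE that were measured, 2 fell (Ero1b and Adcy3) and 0 rose. Whether the element is linked to the direction of a difference was not tested.

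**Figure D2:**
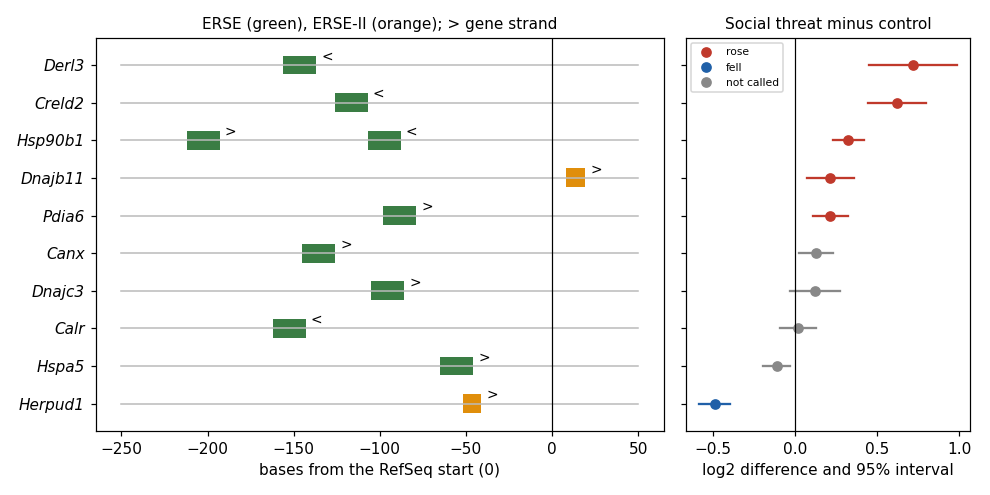
Left, position of each ERSE (green) and ERSE-II (orange) in bases from the RefSeq start, with > for the gene's strand and < for the opposite strand. Right, the log2 difference of the same gene with its 95% interval. The genes shown range from Herpud1 at -0.49 to Derl3 at 0.72.

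Chaperones of the ER lumen rose for 5 of 9 genes and fell for 1, with a median of 0.22. Creld2, an ER stress-induced protein with disulfide isomerase activity, read 7.82 and 7.71 in the control pools and 8.41 and 8.36 in the social threat pools, a rise of 0.62 (SE 0.08, adjusted p = 0.000528) or 1.54-fold. Sdf2l1, a partner of BiP and its co-chaperones, read 8.57 and 8.59 in the control pools and 9.14 and 9.09 in the social threat pools, a rise of 0.54 (SE 0.06, adjusted p = 0.000342). Both genes had 1 probe set each, no overlap between groups, and calls that held in every setting. Hsp90b1, the ER chaperone GRP94, read 10.84 and 10.90 in the control pools and 11.17 and 11.22 in the social threat pools and rose by 0.33 (SE 0.04, adjusted p = 0.000596). Its second probe set differed by 0.37 without a call (adjusted p = 0.107), with control pools at 9.83 and 10.37.

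Manf, a secreted ER stress protein, and Dnajb11, a co-chaperone of BiP, rose by smaller amounts. Manf read 9.90 and 9.83 in the control pools and 10.09 and 10.07 in the social threat pools, a rise of 0.22 (SE 0.05, adjusted p = 0.0175). Dnajb11 read 9.78 and 9.67 in the control pools and 9.999 and 9.88 in the social threat pools, a rise of 0.22 (SE 0.06, adjusted p = 0.0477). Dnajb9, another co-chaperone and a known repressor of IRE1, moved the other way, reading 10.84 and 10.65 in the control pools and 10.42 and 10.52 in the social threat pools, a fall of 0.27 (SE 0.06, adjusted p = 0.0177). These 3 calls were lost without social threat pool 1 (adjusted p of 0.202 to 0.431) and without social threat pool 2 (0.0664 to 0.168), and that of Dnajb11 also without control pool 2 (0.111).

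Hspa5, which encodes BiP, the main chaperone of the ER and the keeper of its stress sensors, did not follow the genes that rose. It read 12.02 and 12.01 in the control pools and 11.86 and 11.94 in the social threat pools, with both social threat pools lower, and was not called (-0.11, SE 0.04, adjusted p = 0.0627, 95% interval -0.19 to -0.03). Its probe sets disagreed. A second probe set differed by -0.04 with overlapping pools, and the other one rose by 0.34 (SE 0.10, adjusted p = 0.0433). The one that rose was the dimmest of the 3, with a control mean of 8.4. By its brightest probe set Hspa5 was called lower in 3 of the 13 alternative settings, with an adjusted p of 0.0226 after a further quantile normalization, 0.0368 with 1 probe set per gene and 0.0402 with a replicate block. Hyou1, a large chaperone that exchanges the nucleotide of BiP, read 8.13 and 8.36 in the control pools and 8.50 and 8.56 in the social threat pools, a difference of 0.28 (SE 0.09, adjusted p = 0.0597). Both social threat pools were higher, and Hyou1 was called higher in 5 of the 13 alternative settings, among them without control pool 2 (adjusted p = 0.00428). Dnajc3, an inhibitor of PERK, differed by 0.12 and was not called.

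Among lectin chaperones and enzymes of disulfide folding, 4 of 9 genes rose and 0 fell, with a median of 0.13. The largest difference of all 52 genes was that of Ero1a, the oxidase that recharges protein disulfide isomerase. Ero1a read 8.51 and 8.34 in the control pools and 9.68 and 9.60 in the social threat pools, a rise of 1.22 (SE 0.07, adjusted p = 4.92e-06) or 2.33-fold. All 3 of its probe sets rose, by 1.22 to 1.38, and the gap between groups was many times that between pools. Its close relative Ero1b, not one of the 54 genes, read 9.56 and 9.49 in the control pools and 9.01 and 9.02 in the social threat pools and fell by 0.50 (SE 0.06, adjusted p = 0.000335).

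The isomerases rose to a lesser extent. P4hb, the founding protein disulfide isomerase, read 11.02 and 10.97 in the control pools and 11.33 and 11.32 in the social threat pools, a rise of 0.33 (SE 0.04, adjusted p = 0.000293). Pdia3, which works with calnexin and calreticulin on glycoproteins, read 11.11 and 11.29 in the control pools and 11.48 and 11.45 in the social threat pools, a rise of 0.26 (SE 0.05, adjusted p = 0.0083). Pdia6 read 10.13 and 10.08 in the control pools and 10.33 and 10.31 in the social threat pools, a rise of 0.21 (SE 0.05, adjusted p = 0.0122), while Pdia4 differed by 0.12 (SE 0.07, adjusted p = 0.376). No pools of the 3 called isomerases overlapped. Without social threat pool 1 the calls of Pdia3 and Pdia6 were lost (adjusted p of 0.103 to 0.181), as they were without social threat pool 2 (0.0692 to 0.14), and P4hb was called in both.

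Calr, calreticulin, read 10.66 and 10.75 in the control pools and 10.69 and 10.76 in the social threat pools, with overlapping groups and a difference of 0.02 (SE 0.05, adjusted p = 0.861), although 1 of its 3 probe sets rose by 0.21. Canx, the membrane lectin calnexin, read 10.50 and 10.59 in the control pools and 10.67 and 10.67 in the social threat pools and was not called (0.13, SE 0.05, adjusted p = 0.109), and another probe set of it rose by 0.37. Canx was called higher in only 2 of the 13 alternative settings. It differed by 0.17 without control pool 2, and the other setting reads that other probe set. Ppib, the ER cyclophilin, read 11.72 and 11.62 in the control pools and 11.66 and 11.61 in the social threat pools, and its groups overlapped. Mzb1, an ER protein of plasma cells, marginal zone B cells and plasmacytoid dendritic cells that aids antibody assembly, read 9.25 and 9.20 in the control pools and 9.13 and 9.09 in the social threat pools. Both social threat pools of Mzb1 were lower, but it was not called (-0.12, SE 0.06, adjusted p = 0.254).

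Genes of ER-associated degradation rose for 3 of 6 and fell for 1, with a median of 0.19. Derl3, a member of the derlin channel family that is typical of secretory cells, read 5.73 and 5.99 in the control pools and 6.59 and 6.57 in the social threat pools, a rise of 0.72 (SE 0.12, adjusted p = 0.00267) or 1.65-fold. Its mean level was under 8, and RMA compresses differences of dim probe sets. Sel1l, the scaffold of the HRD1 ubiquitin ligase, read 8.91 and 8.86 in the control pools and 9.20 and 9.14 in the social threat pools, a rise of 0.29 (SE 0.06, adjusted p = 0.0118), with 3 of its 5 probe sets called higher. Derl2, a relative of Derl3, read 9.01 and 9.0 in the control pools and 9.25 and 9.19 in the social threat pools, a rise of 0.22 (SE 0.06, adjusted p = 0.0372). The calls of Sel1l and Derl2 were lost without social threat pool 1 (adjusted p of 0.205 to 0.366) and without social threat pool 2 (0.112 to 0.208), and that of Derl3 in no setting.

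Herpud1, a membrane protein of the same ligase complex and a sensitive target of ER stress, moved opposite to Sel1l. It read 11.05 and 10.99 in the control pools and 10.54 and 10.52 in the social threat pools, a fall of 0.49 (SE 0.04, adjusted p = 5.16e-05), and its second probe set fell by 0.44. Edem1, which hands glycoproteins to degradation, read 9.99 and 9.97 in the control pools and 10.12 and 10.16 in the social threat pools by the brightest probe set, without a call (0.16, SE 0.05, adjusted p = 0.0517). Its other probe set read 9.70 and 9.76 in the control pools and 10.25 and 10.27 in the social threat pools, a rise of 0.53 (SE 0.05, adjusted p = 9.24e-05), and Edem1 was called higher in 6 of the 13 alternative settings, among them without control pool 1 (adjusted p = 0.0399). Derl1 differed by -0.02 (SE 0.04, adjusted p = 0.824), with overlapping pools.

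Stress sensors and the factors they act through fell for 5 of 6 genes (83.3%), against 11.7% of all genes and 23.9% of those with a mean level of at least 8. Both social threat pools lay below both control pools for the same 5 (32.1% of all genes), which is no further support for the calls. Ddit3, the pro-apoptotic factor CHOP, read 9.72 and 9.64 in the control pools and 8.98 and 8.97 in the social threat pools, a fall of 0.71 (SE 0.06, adjusted p = 4.19e-05) or 1.63-fold. Its second probe set fell by 1.06 (SE 0.16, adjusted p = 0.00135). Atf4, the factor translated when the initiation factor eIF2 is phosphorylated, read 11.04 and 10.98 in the control pools and 10.64 and 10.56 in the social threat pools, a fall of 0.41 (SE 0.05, adjusted p = 0.000235), and a second probe set fell by 0.43. These readings are of mRNA. ATF4 is controlled mainly at translation, which the arrays do not show.

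All 3 sensors were lower. Ern1, the kinase and nuclease IRE1, read 8.71 and 8.44 in the control pools and 8.03 and 8.11 in the social threat pools, a fall of 0.51 (SE 0.10, adjusted p = 0.00565). Atf6 read 8.65 and 8.53 in the control pools and 8.18 and 8.10 in the social threat pools, a fall of 0.45 (SE 0.08, adjusted p = 0.00323), with 2 of its 3 probe sets called. Eif2ak3, the kinase PERK, read 9.93 and 9.79 in the control pools and 9.55 and 9.50 in the social threat pools, a fall of 0.34 (SE 0.06, adjusted p = 0.00492). Other probe sets of Ern1 and Eif2ak3 were dim and not called, and as the mean of all their probe sets these genes were not called either (adjusted p of 0.0938 to 0.212). Ern1 and Eif2ak3 lost their calls without social threat pool 1 (adjusted p of 0.0515 to 0.0897), and Ern1, Eif2ak3 and Atf6 without social threat pool 2 (0.0549 to 0.0979).

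Xbp1, the factor activated when IRE1 splices its mRNA, was the exception. It read 11.39 and 11.42 in the control pools and 11.46 and 11.52 in the social threat pools, slightly higher in both social threat pools and not called (0.09, SE 0.04, adjusted p = 0.163, 95% interval 0.01 to 0.17). None of its 4 probe sets was called. The values do not separate the spliced from the unspliced mRNA.

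**Figure D3:**
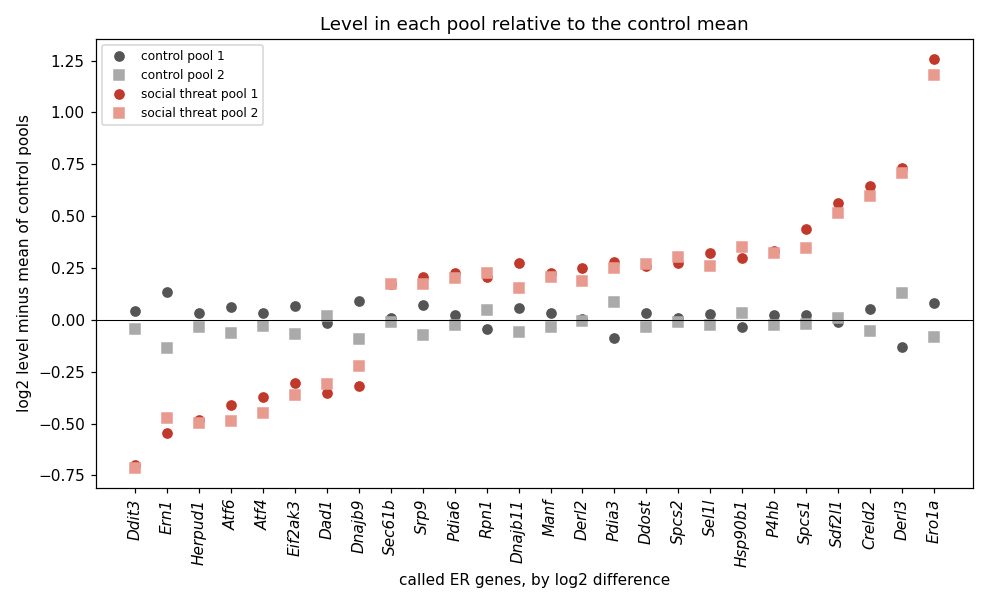
Log2 level of each of the 26 called ER genes in each pool, minus the mean of the control pools of that gene, with genes ordered by their difference. In all 26 genes the social threat pools (red) lie on 1 side of both control pools (grey), from Ddit3 at -0.71 to Ero1a at 1.22 on average. The genes were called from these same values, so their separation is no further support.

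The array read 38 of the 52 genes by more than 1 probe set. Of the 17 called genes among these, 10 had a second probe set called in the same direction, and 0 genes had probe sets called in both directions. For Hspa5, Calr, Ssr3, Canx and Edem1 the probe set with the highest mean was not called, while another one rose. Ssr3 differed by 0.06 by its brightest probe set and by 0.21 by the other one.

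**Figure D4:**
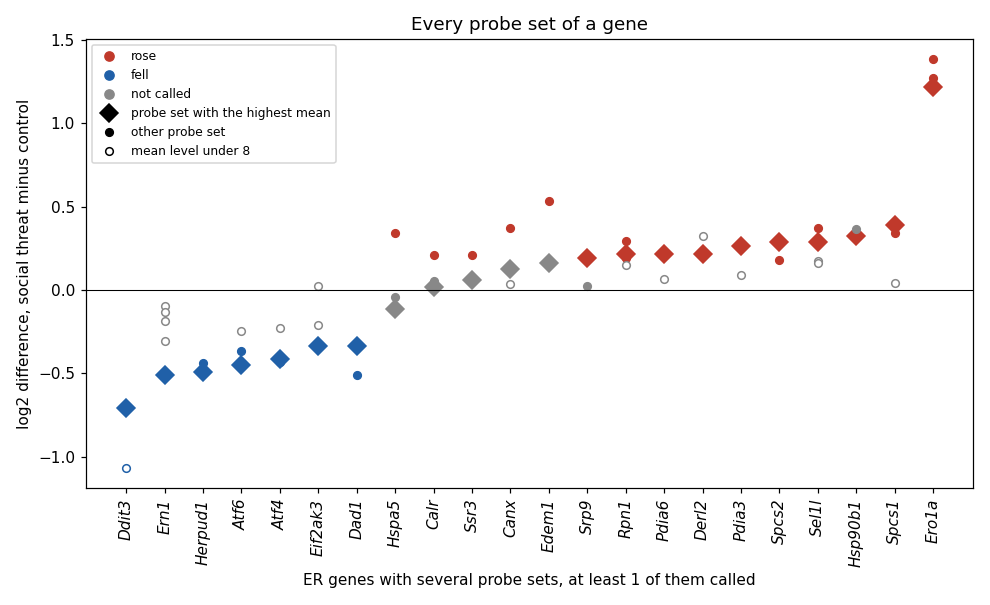
Log2 difference of every probe set of the ER genes that have several probe sets, at least 1 of them called. Diamonds are the probe sets with the highest mean and open circles have a mean level under 8. Ero1a has 3 readings between 1.22 and 1.38, whereas those of Hspa5 lie on both sides of 0.

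A list of 121 other genes of the same route was compared with the 54. It was not picked for how its genes moved, but was written with earlier results of these data known. Of the 117 that were measured, 12 rose (10.3%) and 16 fell (13.7%), with a median of -0.01, against 9.40% and 11.7% of all genes. Among the 64 of them with a mean level of at least 8, 10 rose (15.6%) and 12 fell (18.8%), against 20.5% and 23.9% of all genes at that level. These counts depend on the settings. The rises numbered 21 with bright probe sets only, 22 with 1 probe set per gene, 4 without the variance trend, 4 without social threat pool 1 and 3 without social threat pool 2. The falls numbered 10 without the variance trend, 7 without social threat pool 1 and 4 without social threat pool 2. Targeting genes rose for 3 of 11 and fell for 0, 2 of them among the largest rises of the list. Srp19, a subunit of the signal recognition particle, read 9.38 and 9.46 in the control pools and 9.89 and 9.81 in the social threat pools, a rise of 0.43 (SE 0.06, adjusted p = 0.000813). Sec11c, a catalytic subunit of signal peptidase, read 10.32 and 10.30 in the control pools and 10.61 and 10.64 in the social threat pools, a rise of 0.31 (SE 0.04, adjusted p = 0.00091). Other genes of glycosylation rose for 1 of 26 and fell for 0, the 1 being Dpagt1, the enzyme that starts the sugar chain. It read 7.04 and 7.11 in the control pools and 7.38 and 7.54 in the social threat pools, a rise of 0.39 (SE 0.09, adjusted p = 0.0217). Folding genes rose for 5 of 34 and fell for 4, among them the prolyl isomerase Fkbp2, which read 8.81 and 8.71 in the control pools and 9.17 and 9.09 in the social threat pools, a rise of 0.37 (SE 0.07, adjusted p = 0.00437). Degradation genes rose for 1 of 21 and fell for 4.

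Other genes of the stress response fell for 8 of 25 and rose for 2. Atf3, a factor induced downstream of ATF4, read 11.66 and 11.68 in the control pools and 10.78 and 10.74 in the social threat pools, a fall of 0.91 (SE 0.04, adjusted p = 4.85e-07). Ppp1r15a, the phosphatase subunit GADD34 that reverses eIF2 phosphorylation, read 10.35 and 10.40 in the control pools and 9.49 and 9.54 in the social threat pools, a fall of 0.86 (SE 0.05, adjusted p = 4.67e-06). Both are also immediate early genes, which react to many stimuli. Chac1, a glutathione-degrading target of ATF4, read 8.44 and 8.27 in the control pools and 7.86 and 7.77 in the social threat pools, a fall of 0.54 (SE 0.09, adjusted p = 0.00205). Dnajb2, a co-chaperone of the cytosol and the ER surface, read 7.22 and 7.09 in the control pools and 6.57 and 6.58 in the social threat pools, a fall of 0.58 (SE 0.10, adjusted p = 0.00282).

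Asns, asparagine synthetase and a well known target of ATF4, stood apart from them. It read 6.82 and 6.60 in the control pools and 9.04 and 8.93 in the social threat pools, a rise of 2.28 (SE 0.10, adjusted p = 6.28e-07), and its second probe set rose by 2.54. Trib3, another target of ATF4, was near the array median and not called (0.42, SE 0.12, adjusted p = 0.0516). Genes that ATF4 is known to act on were thus found higher, lower and without a call in the same pools.

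**Figure D5:**
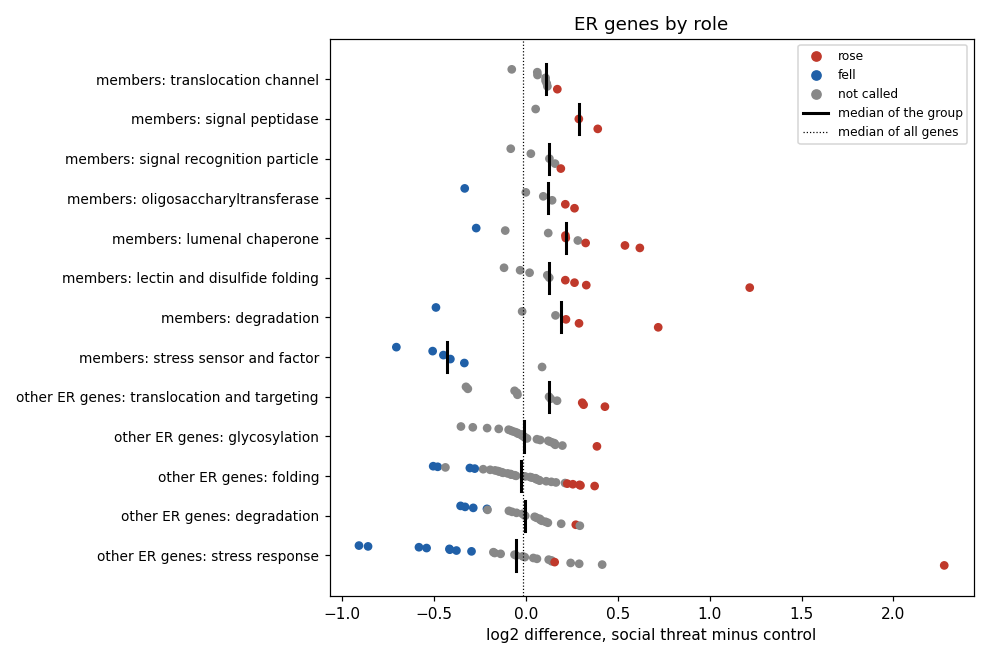
Log2 difference of each measured gene by role, for the 52 ER genes (upper 8 rows) and the 117 other ER genes (lower 5 rows), with the median of each role as a bar and the median of all genes as a dotted line. The stress sensors and factors have a median of -0.43, and Asns at 2.28 is the highest of the other stress response genes.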

How the data were processed

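The values are the log2 levels that the authors deposited. The submitters' processing notes give RMA without a version. This method removes background, equalises the distributions of the arrays and summarises probes, and compresses differences of dim probe sets. The table held 45037 probe sets on 4 arrays, with array medians of 4.41 to 4.43. Depth does not apply to arrays, and the number of pools limits the precision. Groups came from the sample titles.

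Probe sets were named by the platform annotation, of which 34945 had exactly 1 symbol. The fit used limma 3.58.1 in R 4.3.3 (lmFit, and eBayes with a mean-variance trend; residual degrees of freedom 2, prior 7.14), two-sided, with Benjamini-Hochberg adjustment over all 45037 probe sets. The fit was also tested on simulated data. With noise drawn from each probe set's own variance, the first model tried, most changes of 1.5-fold and 2-fold were missed and the test's limit was not met. The model was then changed to limma's moderated variances, under which it was met, so that small changes not called here may still be present. The 54 genes, the role groups and the other lists were chosen with earlier results of these data known. Named genes were all called members, 13 members whatever their values, and up to 5 called genes in each direction of the other ER genes. Further readings of a gene, the level limit of 8, the motifs and Trib3 were chosen after their values were seen. Alternatives varied the variance model, a filter on dim probe sets, the normalization, the probe set of a gene, the pools and the replicate block. Labels gave no batch, and any batch that coincided with a group cannot be told apart from it. The pool numbers were taken as names, since nothing in the labels pairs them.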

Additional observations from a re-analysis of the deposited data

How the results depend on the processing

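Of the 26 called genes, each kept its sign in all 13 alternatives, and 283 of 338 readings kept their call. Without the variance trend, 5 of the 52 genes were called higher and 5 lower, against 18 and 8, and 4 and 10 of the other ER genes, against 12 and 16. Leaving out 1 pool in turn gave 7 to 19 genes higher and 4 to 8 lower, and 3 to 17 of the other ER genes higher and 4 to 21 lower, with the fewest calls when a social threat pool was left out. The lone pool was then assumed to vary like the other group. The median difference of 0.12 ranged from 0.100 to 0.128 in those fits and was 0.0953 as the mean of a gene's probe sets. Other ER genes called higher numbered 21 with bright probe sets only and 22 with 1 probe set per gene. Dad1, Hsp90b1 and P4hb were not called without the variance trend (adjusted p = 0.051, 0.0596 and 0.0524). With the pool number as a replicate block, which left 1 residual degree of freedom, 20 genes were called higher and 9 lower, and all 26 calls held. The correlation between the pool differences of the 2 groups over all probe sets was 0.05, and with 2 pairs the numbers were not taken to pair the pools. Precision was limited by 2 pools per group, and levels near the array median cannot be separated from background.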

Other observations

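Outside the 54 genes, 21 genes held an exact ERSE in their promoter window, of which 11 were measured, and 2 of these fell while 0 rose. Among all 18193 genes 9.40% rose and 11.7% fell. Acnat2, Ptgdr2, Spats2l, Tdrd9 and Zfp57 were below the array median of 4.41 to 4.43, where signal and background cannot be separated. The counts therefore say little about such genes outside the 54. Ero1b fell by 0.50 (SE 0.06, adjusted p = 0.000335), the direction opposite to that of Ero1a, which has no exact ERSE in its window. Adcy3, an adenylyl cyclase, read 6.57 and 5.95 in the control pools and 5.63 and 5.65 in the social threat pools, a fall of 0.62 (SE 0.18, adjusted p = 0.0461). Syvn1, the ubiquitin ligase HRD1 that works on the scaffold Sel1l, read 7.96 and 7.89 in the control pools and 7.89 and 7.92 in the social threat pools and was not called (-0.02, SE 0.08, adjusted p = 0.923). Alg12, a mannosyltransferase of the sugar chain, differed by -0.01 (SE 0.11, adjusted p = 0.986). These genes were chosen after their values were seen.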
